A study of Homo sapiens with 9 samples.

Results

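The metallothionein genes MT1E, MT1F, MT1G, MT1M, MT1X and MT2A, and MTF1, the gene of the transcription factor that switches them on in response to metal, were examined in MDA-MB-231 cells exposed to 2-deoxy-D-glucose (2-DG). The genes were taken by symbol, and all 7 were found among the 61552 genes listed in each library. MDA-MB-231 is an established human triple-negative breast cancer cell line, here of wild-type genotype, and 2-DG is a glucose analog that hexokinase phosphorylates but that glycolysis cannot use further. RNA-seq was performed after 24 h in 3 groups of 3 libraries, namely control cells given no 2-DG (0 mM, PBS in the study's methods), cells given 10 mM 2-DG and cells given 20 mM 2-DG. All libraries came from the same cell line in serum-supplemented DMEM. The labels do not say whether replicates were separate cultures, so the p-values below measure the spread between these libraries, which may be technical.

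Metallothioneins are small, cysteine-rich proteins that bind zinc, copper and cadmium, buffer free zinc in the cell and react readily with oxidants. In humans the functional genes sit in 1 cluster on chromosome 16. Free zinc binds the zinc fingers of MTF1, which then occupies metal response elements in the promoters of metallothionein genes and of SLC30A1, the zinc exporter of the plasma membrane. Oxidative stress and glucocorticoids are further known inducers of the family, and breast cancer cells often express MT2A at a high level.

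The 6 metallothionein members lie within 74.2 kb from the start of MT2A to the start of MT1X. In GRCh38 with the GENCODE release 29 annotation, MT2A (ENSG00000125148) occupies chr16:56608199-56609497 and MT1E (ENSG00000169715) occupies chr16:56625475-56627112, both on the plus strand. MT1X (ENSG00000187193) occupies chr16:56682424-56684196 on the plus strand, and MT1G (ENSG00000125144) is the member read from the minus strand, at chr16:56666731-56668065. MT1M (ENSG00000205364) and MT1F (ENSG00000198417) start 24.0 and 49.5 kb beyond the start of MT2A. MTF1 (ENSG00000188786) lies elsewhere, at chr1:37809567-37859620 on the minus strand.

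The promoters of MT2A and MT1X are shown because these genes were the most abundant member and the member with the largest change, and both carry copies of the letters that MTF1 reads. The core of the metal response element, TGCACNC or TGCGCNC, was searched on both strands in the 250 bases before each RefSeq start (GRCh38.p14), where 3 of the 7 members had a sequence. MT2A held 7 matches, a number reached by 0.0330% of 27305 promoters, MT1X held 4, reached by 0.366%, and the MTF1 promoter itself held 0. At least 1 match was present in 24.7% of all promoters. The MT1X stretch covers chr16:56682220-56682423 on the plus strand, with matches in capitals (a match on the opposite strand appears as its reverse complement).
MT1X: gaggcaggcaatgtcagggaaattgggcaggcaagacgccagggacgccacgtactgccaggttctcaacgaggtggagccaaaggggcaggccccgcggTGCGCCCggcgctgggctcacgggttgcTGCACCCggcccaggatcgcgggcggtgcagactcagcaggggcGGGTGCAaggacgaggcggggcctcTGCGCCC
For MT2A, 3 stretches of 30 bases from the plus strand are given, at chr16:56608427-56608456, chr16:56608487-56608516 and chr16:56608521-56608550. Only short stretches are given because the annotated MT2A gene, which starts at 56608199, spans the whole window.
MT2A 157 to 128 bases upstream: cgggTGCGCCCggcccagTGCGCGCggccg
MT2A 97 to 68 bases upstream: gcgcggggcGTGTGCAggcagcgcccggcc
MT2A 63 to 34 bases upstream: cggggctttTGCACTCgtcccggctctttc
A match describes the letters and is not evidence of binding. Among the metallothionein promoters searched (MT2A, MT1X, MT1H, MT1B and MT4), that of MT1H held the most (8 matches, reached by 0.0183% of promoters). MT1H is not a member and is shown for contrast because its gene collected 38 reads over the 9 libraries together. The MT1H stretch covers chr16:56669564-56669813 on the plus strand.
MT1H: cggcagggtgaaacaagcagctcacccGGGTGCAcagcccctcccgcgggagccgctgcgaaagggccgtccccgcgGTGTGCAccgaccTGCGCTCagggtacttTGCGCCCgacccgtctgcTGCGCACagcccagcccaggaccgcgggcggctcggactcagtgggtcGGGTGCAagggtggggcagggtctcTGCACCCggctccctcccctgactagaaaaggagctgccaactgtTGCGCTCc

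The deposited values were FPKM, a read level scaled for gene length and library depth, from which whole reads were recovered. The totals lay between 30974968 and 40843638 reads per library. Markers of the line were present in every library (VIM 243 to 313 FPKM, AXL 89.9 to 126 FPKM, CD44 52.9 to 74.1 FPKM, CAV1 61.3 to 105 FPKM, EGFR 11.4 to 33.6 FPKM). Their levels were not all stable. CAV1 had group means of 103, 66.4 and 62.4 FPKM in control, at 10 mM and at 20 mM, and EGFR of 14.0, 24.8 and 26.0 FPKM. ESR1 and PGR, the hormone receptors that triple-negative cells lack, did not exceed 0.00829 and 0.0204 FPKM. Of the markers of other cell types, PTPRC (leukocytes) and ALB (liver) did not exceed 0.0327 and 0.0410 FPKM, while PECAM1 (endothelium) lay between 0.826 and 1.95 FPKM and COL1A1 (fibroblasts) between 0.891 and 1.33 FPKM. PECAM1 fell at 20 mM, from 1.72 to 0.914 FPKM (adjusted p = 0.00318, limma), and its part in the results below was not tested. The luminal and epithelial markers GATA3 (1.17 to 2.34 FPKM) and EPCAM (2.61 to 4.51 FPKM) were low but present. FOXA1, also a luminal marker, did not exceed 0.0516 FPKM. The epithelial marker CDH1 was low and lower in treated cells, with group means of 0.365, 0.0493 and 0.0686 FPKM. These rested on 237, 33 and 43 reads. The 10 mM replicates 1 and 2 stood farthest apart of all replicate pairs (Pearson's r of 0.989 on the log2 scale across genes, against up to 0.996).

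2-DG was followed by unequal changes within the family. Compared with control, MT1E was lower at both doses, MT1X was higher at both doses, MTF1 was higher at 20 mM, and MT2A, which made up at least 91.4% of the family's summed FPKM in each library, did not pass the test at either dose. MT1F and MT1M also did not pass, and MT1G was nearly absent. No tested member changed by as much as 1 on the log2(FPKM + 1) scale.

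**Figure D1:**
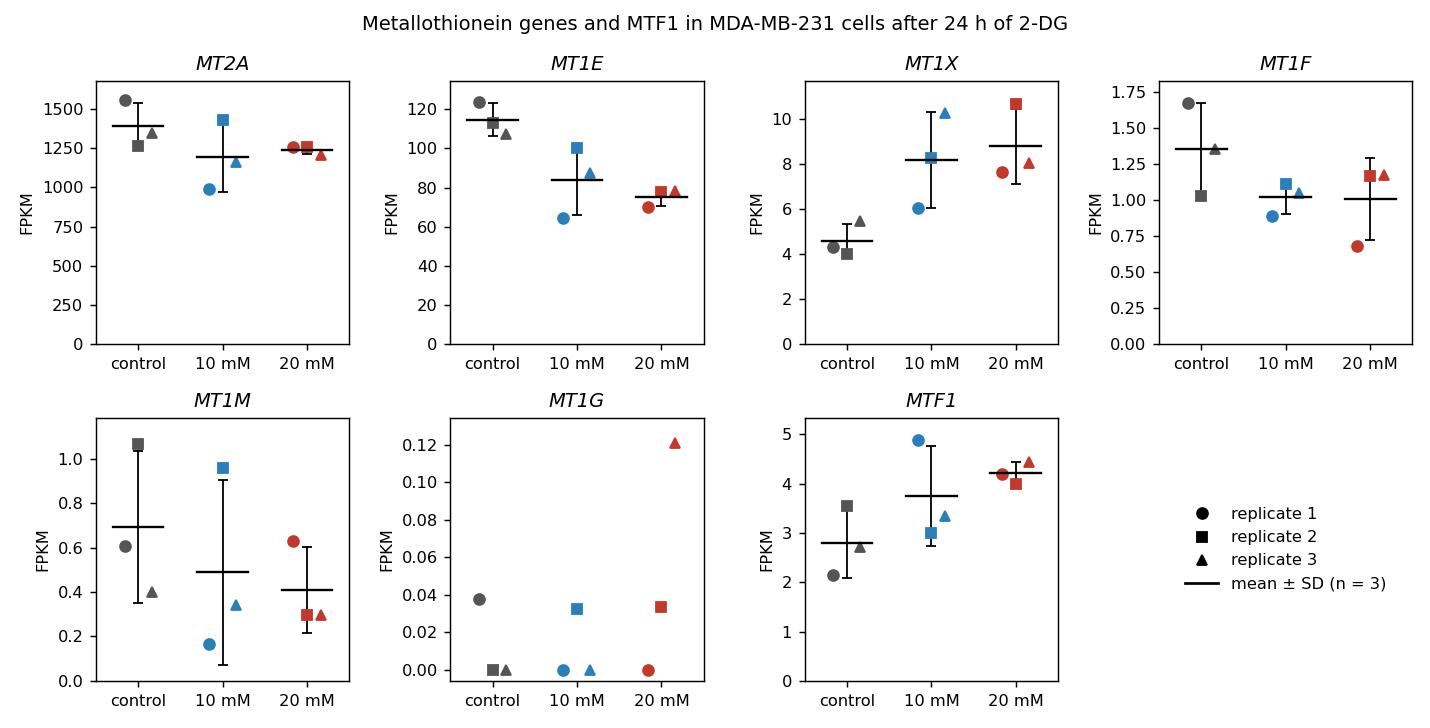
FPKM (vertical axis, linear, a different range in each panel) of the 7 genes in each of the 9 libraries, by group, with mean and SD (n = 3) as bars except for MT1G, which was at 0 in several libraries. All control points of MT1E lie above the treated points and all control points of MT1X lie below them, whereas the MT2A points of control and 10 mM 2-DG overlap.

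MT2A, the main metallothionein of most human cells, was by far the most abundant member. It ranked 23 among the 16570 tested genes by mean FPKM. Its level was 1554, 1264 and 1347 FPKM in the control libraries, 992, 1431 and 1162 FPKM at 10 mM and 1256, 1257 and 1207 FPKM at 20 mM. The group means were 1389 ± 149, 1195 ± 222 and 1240 ± 28.4 FPKM (SD, n = 3). The 10 mM and control libraries overlapped, with control replicate 1 above all others, and every 20 mM library lay below every control library by a small margin. The difference from control on the log2(FPKM + 1) scale was -0.23 at 10 mM (95% interval -0.54 to 0.09, adjusted p = 0.256, limma) and -0.16 at 20 mM (-0.47 to 0.16, adjusted p = 0.413). A decrease of up to 0.54 on the log2 scale lies within these intervals. The size rested on single libraries. At 10 mM it was -0.37 without 10 mM replicate 2 (adjusted p = 0.0397), -0.10 without 10 mM replicate 1 (0.598) and -0.14 without control replicate 1 (0.539), and at 20 mM it was -0.07 without control replicate 1 (0.747).

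MT1E, one of the MT1 isoforms that breast cancer cells express, was the second most abundant member, at rank 410. It stood at 124, 113 and 107 FPKM in control, 64.4, 100.1 and 87.2 FPKM at 10 mM and 70.0, 77.7 and 78.0 FPKM at 20 mM. No treated library reached the lowest control library. MT1E fell at 10 mM by 0.47 on the log2 scale (SE 0.14, adjusted p = 0.0276, limma), from 115 ± 8.34 to 83.9 ± 18.1 FPKM (SD, n = 3), a ratio of 0.731. At 20 mM it fell by 0.60 (SE 0.14, adjusted p = 0.00671) to 75.2 ± 4.54 FPKM, a ratio of 0.656. The call at 10 mM was lost without control replicate 1 (adjusted p = 0.0858) or control replicate 2 (0.0585), with another scaling of the libraries (0.0586) and with all genes above 0 in the fit (0.0941), with differences between -0.41 and -0.48. Without 10 mM replicate 1, the lowest library, the difference at 10 mM was -0.29 (adjusted p = 0.0347). The call at 20 mM was kept under each of the 16 alternatives.

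MT1X, another MT1 isoform, moved the opposite way from a much lower level, at rank 4932. Its level was 4.32, 4.01 and 5.45 FPKM in control, 6.03, 8.25 and 10.3 FPKM at 10 mM and 7.63, 10.7 and 8.06 FPKM at 20 mM. All 6 treated libraries lay above all 3 controls. MT1X rose at 10 mM by 0.70 on the log2 scale (SE 0.18, adjusted p = 0.0154, limma), from 4.595 ± 0.758 to 8.18 ± 2.11 FPKM (SD, n = 3), a ratio of 1.78. At 20 mM it rose by 0.80 (SE 0.18, adjusted p = 0.00606) to 8.79 ± 1.65 FPKM, a ratio of 1.91. The call at 10 mM was lost without control replicate 2 (adjusted p = 0.0517), without 10 mM replicate 3 (0.0528) and with all genes above 0 in the fit (0.0592), while that at 20 mM was kept under each of the 16 alternatives.

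The reads behind MT1X numbered 842, 1557 and 1602 in the 3 groups. Its exons share 321 of 1773 bases on the same strand with AC026461.1, which was listed at 0 in all 9 libraries. Of the annotated 50-base windows of MT1X, 18.3% occur in another gene, and 3.64% when AC026461.1 is set aside, where MT1XP1, a pseudogene, and MT2A are among the sources. This compares with 7.10% for MT1E and 3.02% for MT2A. MT1XP1 failed the filter on low counts, with 4, 1 and 2 reads in control, 9, 13 and 15 reads at 10 mM and 5, 9 and 1 reads at 20 mM. How reads that match several genes were counted is not given in the sources used here, and its part in the MT1X values was not tested.

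MTF1, the metal-sensing zinc finger factor, was measured at 2.15, 3.56 and 2.71 FPKM in control, 4.89, 3.00 and 3.35 FPKM at 10 mM and 4.19, 3.999 and 4.44 FPKM at 20 mM. The 10 mM libraries overlapped the controls, and all 20 mM libraries lay above them. MTF1 rose at 20 mM by 0.47 on the log2 scale (SE 0.16, adjusted p = 0.0472, limma), from 2.80 ± 0.709 to 4.21 ± 0.221 FPKM (SD, n = 3), a ratio of 1.502. At 10 mM the difference was 0.32 (95% interval -0.05 to 0.68, adjusted p = 0.180). The 20 mM call was close to the threshold and was lost in 6 of the 9 fits that left out 1 library. The adjusted p was 0.149 without control replicate 1 and 0.106 without control replicate 3, 0.0596 without 10 mM replicate 3, and 0.103, 0.0832 and 0.120 without 20 mM replicates 1, 2 and 3. It was also lost with all genes above 0 in the fit (0.126).

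The remaining members were expressed at a low level. MT1F was measured at 1.67, 1.03 and 1.35 FPKM in control, 0.891, 1.11 and 1.05 FPKM at 10 mM and 0.680, 1.17 and 1.18 FPKM at 20 mM, with overlapping groups. Its difference from control was -0.21 at 10 mM (95% interval -0.50 to 0.07, adjusted p = 0.245, limma) and -0.23 at 20 mM (-0.52 to 0.06, adjusted p = 0.193). The log2(FPKM + 1) scale understates changes at this level. With limma-voom on the recovered reads the differences were -0.38 (adjusted p = 0.312) and -0.41 (adjusted p = 0.261). MT1M, an MT1 isoform described mainly in liver, collected 11, 20 and 7 reads in control, 3, 20 and 6 reads at 10 mM and 10, 6 and 5 reads at 20 mM. With so few reads its intervals were wide, at -0.64 to 0.24 for 10 mM (adjusted p = 0.488, limma) and -0.69 to 0.18 for 20 mM (adjusted p = 0.345). A change of the FPKM ratio seen in MT1E was not detectable at this depth and on this scale. MT1G had 1, 0 and 0 reads in control, 0, 1 and 0 reads at 10 mM and 0, 1 and 3 reads at 20 mM, and was not tested.

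**Figure D2:**
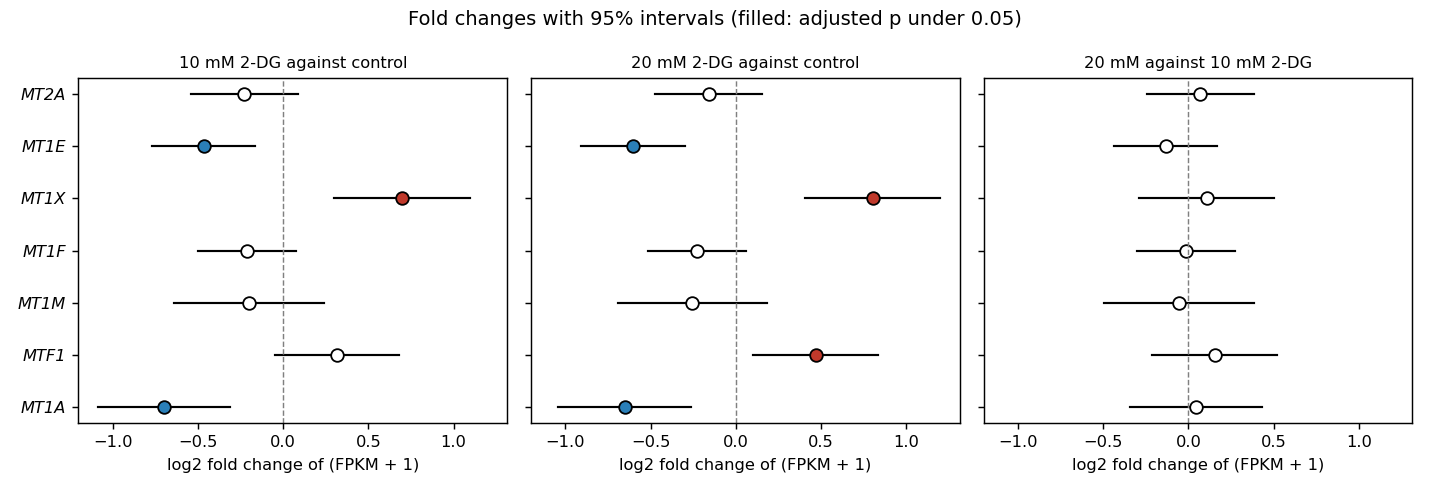
Differences in log2(FPKM + 1) with 95% intervals (horizontal axis) for the 6 tested members and MT1A, at 10 mM against control, 20 mM against control and 20 mM against 10 mM 2-DG, with 3 libraries per group. Against control, the intervals of MT1E lie below 0 and those of MT1X above 0 at both doses, that of MTF1 lies above 0 at 20 mM, and those of MT2A, MT1F and MT1M include 0, as do those of all 7 genes between the doses.

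Counted over the 6 tested members, 1 rose (MT1X) and 1 fell (MT1E) at 10 mM, where 29.6% of the 16570 genes tested passed at an adjusted p under 0.05 (12.1% higher and 17.5% lower). At 20 mM 2 rose (MT1X and MTF1) and 1 fell (MT1E), where 37.0% of all genes passed (15.4% higher and 21.6% lower). These shares of the members were close to the background, so the counts themselves are no result about the family. The ranges of control and treated libraries did not overlap for 2 of 6 members at 10 mM (background 40.5%) and for 4 of 6 at 20 mM (background 53.3%). The study's rule for DEGs was an unadjusted p under 0.05 with an absolute log2 fold change over 1. The study used it with DESeq2. Here it was applied to limma differences of log2(FPKM + 1), which understate changes of low genes. On this scale 0 members were DEGs at 10 mM, at 20 mM or between the doses, against 1.74%, 2.92% and 0.00604% of all genes. The median difference was -0.21 and -0.19 over the tested members and -0.01 and -0.02 over all genes. The comparisons of the doses with control share the 3 control libraries and are not independent of each other.

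Between the doses no member differed at an adjusted p under 0.05 with limma, nor did any of the 16570 genes (0%), of which 1140 (6.88%) had an unadjusted p under 0.05. The 20 mM minus 10 mM difference was -0.13 for MT1E (95% interval -0.44 to 0.17), 0.11 for MT1X (-0.29 to 0.50), 0.15 for MTF1 (-0.21 to 0.52) and 0.07 for MT2A (-0.24 to 0.38). The sign of the differences of MT1E, MT1X and MT2A turned when single libraries were left out. These intervals leave room for differences of up to 0.52 on the log2 scale. The ranges of the doses overlapped for all 6 tested members, against 11.9% of all genes without overlap.

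FPKM divides reads by a gene length, which was 914 bases for MT2A, 1052 for MT1E, 1727 for MT1X and 1852 for MT1F. Levels of members set side by side within a library depend on these lengths. Except that of MT1E, the lengths were inferred as the smallest that gave whole reads. Their match to the transcripts present was not tested. By mean level the order was MT2A, MT1E, MT1X, MTF1, MT1F, MT1M and MT1G. Neighbors in this order did not overlap within any group, except MT1F and MT1M in control and at 10 mM. The summed FPKM of the 6 metallothioneins was 1510 ± 156 in control, 1289 ± 241 at 10 mM and 1325 ± 27.2 at 20 mM (SD, n = 3), and MT2A made up between 91.4% and 94.1% of it in each library. In bulk samples, fewer cells expressing a gene and less RNA per cell cannot be told apart.

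The proportions within the family differed between control and treated libraries. MT1X, as a percentage of MT1E in the same library, was 3.49%, 3.55% and 5.07% in control, 9.36%, 8.24% and 11.8% at 10 mM and 10.9%, 13.8% and 10.3% at 20 mM. Every treated library exceeded every control, with group means of 4.04% ± 0.898, 9.79% ± 1.80 and 11.7% ± 1.84 (SD, n = 3). All treated libraries already lay above the controls in MT1X and below them in MT1E. The separation of this percentage follows from those values and is no further result. MT2A stood at 12.1 ± 0.779 times the FPKM of MT1E in control, 14.3 ± 1.04 times at 10 mM and 16.5 ± 1.27 times at 20 mM. Its multiple of MT1X went the other way, from 307 ± 56.7 in control to 150 ± 32.5 and 144 ± 24.0. These ratios were chosen after the values had been seen and are given without a test. Their levels depend on the lengths behind FPKM, which are the same in every library.

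**Figure D3:**
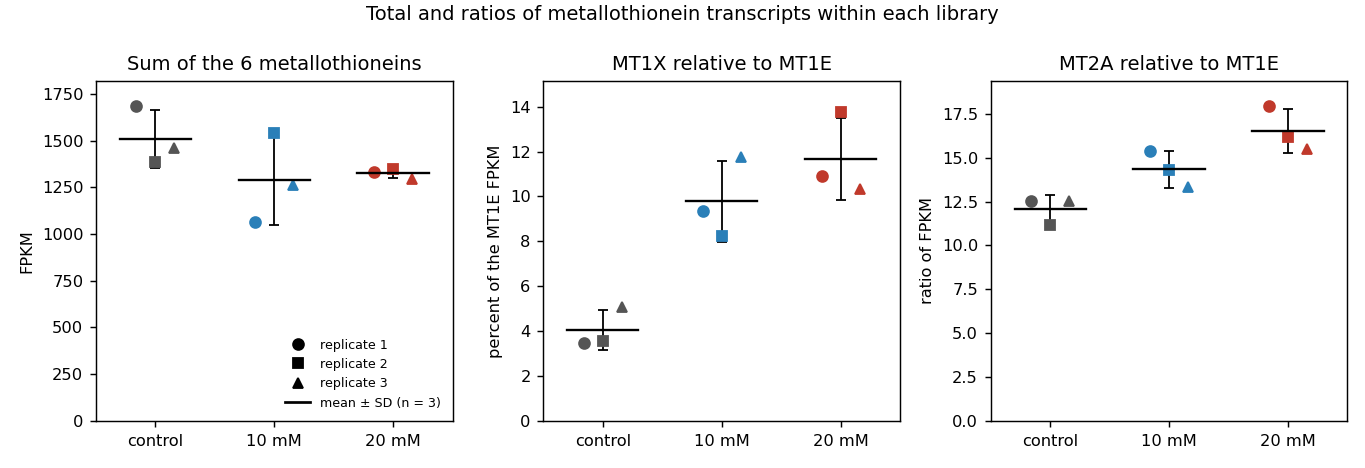
Summed FPKM of the 6 metallothioneins, MT1X as a percentage of MT1E and MT2A divided by MT1E (linear axes from 0) in each of the 9 libraries, with mean and SD (n = 3) per group. MT1X as a percentage of MT1E lies between 3.49% and 5.07% in control and between 8.24% and 13.8% in the treated libraries, and MT2A divided by MT1E lies between 11.2 and 12.5 in control and between 13.3 and 17.9 in the treated libraries.

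In 10 mM replicates 1 and 2, the deviations of the most abundant members moved with gene length. MT2A and MT1E are short, with lengths behind their FPKM of 914 and 1052 bases. For 148 genes under 1000 bases with a mean of at least 10 FPKM, the median deviation from the group mean was -0.18 in 10 mM replicate 1 and 0.17 in 10 mM replicate 2 on the log2 scale. MT2A deviated by -0.25 and 0.28 in these libraries and MT1E by -0.35 and 0.28. MTF1, with a length of 7989 bases, deviated the other way, by 0.33 and -0.23, as did 5303 genes of at least 5000 bases, with medians of 0.07 and -0.08. MT1X, with a length of 1727 bases, deviated by -0.36 in 10 mM replicate 1, by 0.04 in replicate 2 and by 0.32 in replicate 3. It so followed the short genes in only the first of these. MT1E did not follow them in every library. In 20 mM replicates 1 and 3 it deviated by -0.10 and 0.05, where the short genes had medians of 0.02 and -0.05.

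**Figure D4:**
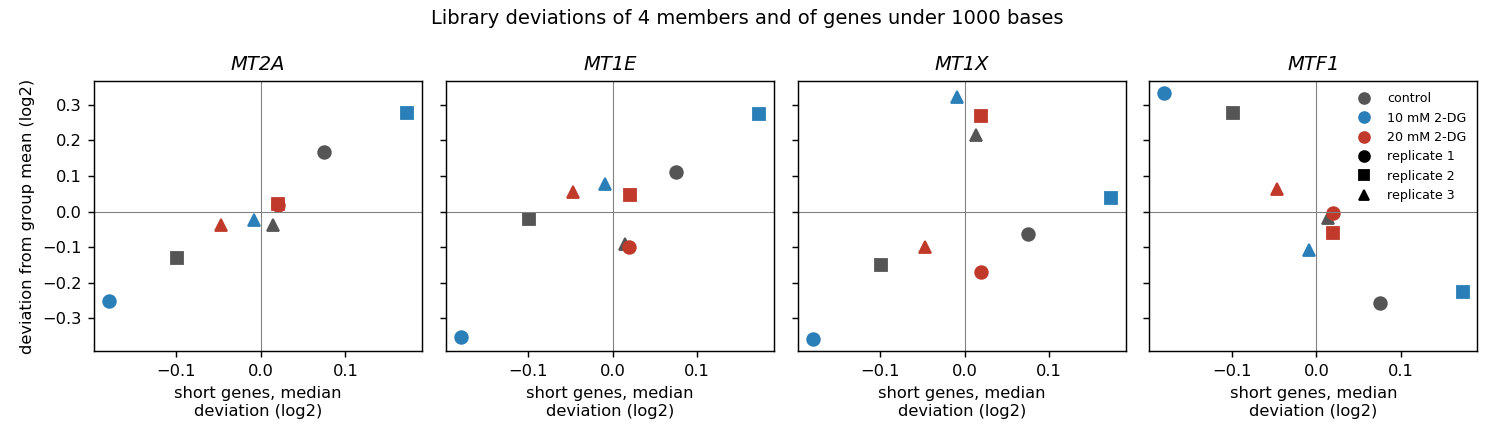
Deviation of MT2A, MT1E, MT1X and MTF1 from the group mean in log2(FPKM + 1) (vertical axis) against the median deviation of 148 short genes (horizontal axis), with 1 point for each of the 9 libraries. The 10 mM replicates 1 and 2 lie at opposite ends, at -0.18 and 0.17 on the horizontal axis, where MT2A deviates by -0.25 and 0.28 and MTF1 by 0.33 and -0.23.

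Between groups the length classes barely differed. The short genes had a median difference from control of 0.01 at 10 mM and -0.02 at 20 mM, and the long genes of -0.01 and -0.03. When the trend with length was removed in each library, an alternative chosen after seeing the data, MT1E differed by -0.47 and -0.60 at 10 and 20 mM (adjusted p = 0.0109 and 0.00224, limma) and MT1X by 0.72 and 0.83 (adjusted p = 0.00665 and 0.00230). MTF1 differed by 0.50 at 20 mM (adjusted p = 0.0142), and MT2A by -0.24 and -0.16 (adjusted p = 0.142 and 0.298). The same members were called as without the removal.

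Of 15 further metallothionein genes and pseudogenes, 2 passed the filter. MT1A, a protein-coding gene between MT1M and MT1F, was measured at 4.34, 3.996 and 3.75 FPKM in control, 1.58, 2.29 and 2.498 FPKM at 10 mM and 1.55, 2.09 and 3.13 FPKM at 20 mM. No treated library reached the controls. MT1A fell by 0.70 at 10 mM (SE 0.17, adjusted p = 0.0137, limma) and by 0.65 at 20 mM (SE 0.17, adjusted p = 0.0149), on 170, 93 and 93 reads per group. The latter had an adjusted p of 0.0549 without 20 mM replicate 1 and of 0.0513 with all genes above 0 in the fit. The group means of MT1A were 4.03, 2.12 and 2.26 FPKM, a level at which the log2(FPKM + 1) scale understates changes. With limma-voom on the recovered reads its differences were -0.93 at 10 mM (adjusted p = 0.0381) and -0.88 at 20 mM (adjusted p = 0.0439). MT2P1, a pseudogene, fell at 10 mM by 0.54 (adjusted p = 0.0285, limma), a call kept in 10 of 16 alternatives. Its difference at 20 mM was -0.12 (adjusted p = 0.612) and turned to 0.07 without 20 mM replicate 3. MT2P1 shares 50-base windows with MT2A and MT1E, and it collected 205 reads in all, against 374563 for MT2A. The part of shared reads in its values was not tested. MT1B, MT4 and MT1P3 were listed at 0 in every library, and MT3, the isoform of brain, had reads in 1 library.

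Zinc enters the cytosol through the SLC39 family and leaves it through the SLC30 family. Of 12 SLC39 genes tested, 3 rose and 2 fell at each dose, with medians of 0.03 and 0.06, where 29.6% and 37.0% of all genes passed at 10 and 20 mM. SLC39A14, an importer of zinc, manganese and iron, stood at 10.8, 13.5 and 12.4 FPKM in control, 34.9, 23.8 and 27.9 FPKM at 10 mM and 33.5, 31.9 and 34.6 FPKM at 20 mM. The treated libraries were all above the controls, and SLC39A14 was a DEG at 10 mM (log2 fold change 1.16, adjusted p = 0.000123, limma) and at 20 mM (1.38, adjusted p = 2.68e-05). SLC39A13, a transporter of intracellular vesicles, rose at both doses (0.34 and 0.42), SLC39A1 rose at 10 mM (0.30) and SLC39A7, the zinc release channel of the endoplasmic reticulum, at 20 mM (0.22). SLC39A4, the intestinal zinc importer, fell by 0.63 and 0.78, and SLC39A8, a zinc and manganese importer, fell by 0.25 and 0.39.

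Of 7 SLC30 genes tested, 2 rose and 0 fell at 10 mM, and 2 rose and 2 fell at 20 mM (medians 0.09 and 0.08), against 29.6% and 37.0% of all genes. SLC30A1, a known MTF1 target, was measured at 4.32, 5.90 and 5.93 FPKM in control, 9.56, 6.43 and 7.07 FPKM at 10 mM and 7.71, 7.70 and 8.10 FPKM at 20 mM. It exceeded the controls in every treated library and rose by 0.44 (adjusted p = 0.0403, limma) and 0.48 (adjusted p = 0.0230). The call at 10 mM was close to the threshold, and replicate 1 was the highest of the 10 mM libraries. SLC30A7, which loads zinc into the Golgi, rose by 0.54 at both doses. SLC30A9 and SLC30A6 fell at 20 mM by 0.54 and 0.28.

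Among 12 copper-handling genes, 1 rose and 2 fell at 10 mM, and 1 rose and 3 fell at 20 mM (medians -0.10 and -0.11), no larger a share than the 29.6% and 37.0% of all genes. SLC31A1, the high-affinity copper importer, rose by 0.77 (adjusted p = 0.000161, limma) and 0.86 (adjusted p = 5.14e-05), from 10.7 to 18.9 and 20.2 FPKM. The copper chaperone ATOX1 and the copper-zinc superoxide dismutase SOD1 fell at both doses, SOD1 by 0.44 and 0.38, and COX11 fell at 20 mM. Of 11 iron-handling genes tested, 3 rose and 2 fell at 10 mM, and 3 rose and 4 fell at 20 mM (medians -0.07 and -0.11), beside the same shares of all genes. The ferritin subunits FTH1 (0.75 and 0.71) and FTL (0.61 and 0.72) and the ferrireductase STEAP3 (0.28 and 0.36) rose. ACO1, the iron regulatory protein that is also cytosolic aconitase, fell by 0.72 and 0.85, and the iron importer SLC11A2 fell by 0.38 and 0.43.

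Cadmium and excess zinc are known to induce oxidant and heat shock genes along with metallothioneins. Of 12 such genes outside the family, 6 rose and 4 fell at 10 mM, and 7 rose and 4 fell at 20 mM, with medians of 0.33 and 0.42. Of all genes, 12.1% rose and 17.5% fell at 10 mM, and 15.4% rose and 21.6% fell at 20 mM. The genes that rose at both doses were the cystine importer SLC7A11 (1.49 and 1.65), the heme oxygenase HMOX1 (0.99 and 1.12), the glutathione synthesis genes GCLC (0.68 and 0.89) and GCLM (0.41 and 0.44), SRXN1 (0.58 and 1.00) and SLC30A1. Of the 5 heat shock genes and cochaperones in the list, 4 fell, namely HSPA1B by 0.78 and 0.80, HSPA1A by 1.04 and 0.86, DNAJB1 by 0.19 at both doses and BAG3 by 0.19 and 0.27. HSPA6, the other one, did not pass, with differences of -0.27 (adjusted p = 0.302, limma) and -0.15 (adjusted p = 0.557) and overlapping groups. HSPA1A and HSPA1B are near-identical copies, so the division of reads between them is uncertain.

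Of 8 glucocorticoid-responsive genes tested, 3 rose and 1 fell at 10 mM, and 4 rose and 1 fell at 20 mM (medians 0.23 and 0.32), where 29.6% and 37.0% of all genes passed. The phosphatase DUSP1 (0.73 and 0.84), TSC22D3 (0.52 and 0.46) and the clock gene PER1 (0.46 and 0.48) rose, while FKBP5, a chaperone of the glucocorticoid receptor and a standard marker of its activity, fell by 0.79 and 0.85. Of 10 tested genes flanking the metallothionein cluster, 1 rose and 4 fell at each dose (medians -0.20 and -0.17), beside the same shares of all genes. HERPUD1, a gene of endoplasmic reticulum stress, rose by 1.48 and 1.80, and NUP93, a nuclear pore gene, fell by 0.51 and 0.47. Between the doses 0 genes of any of these lists passed.

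**Figure D5:**
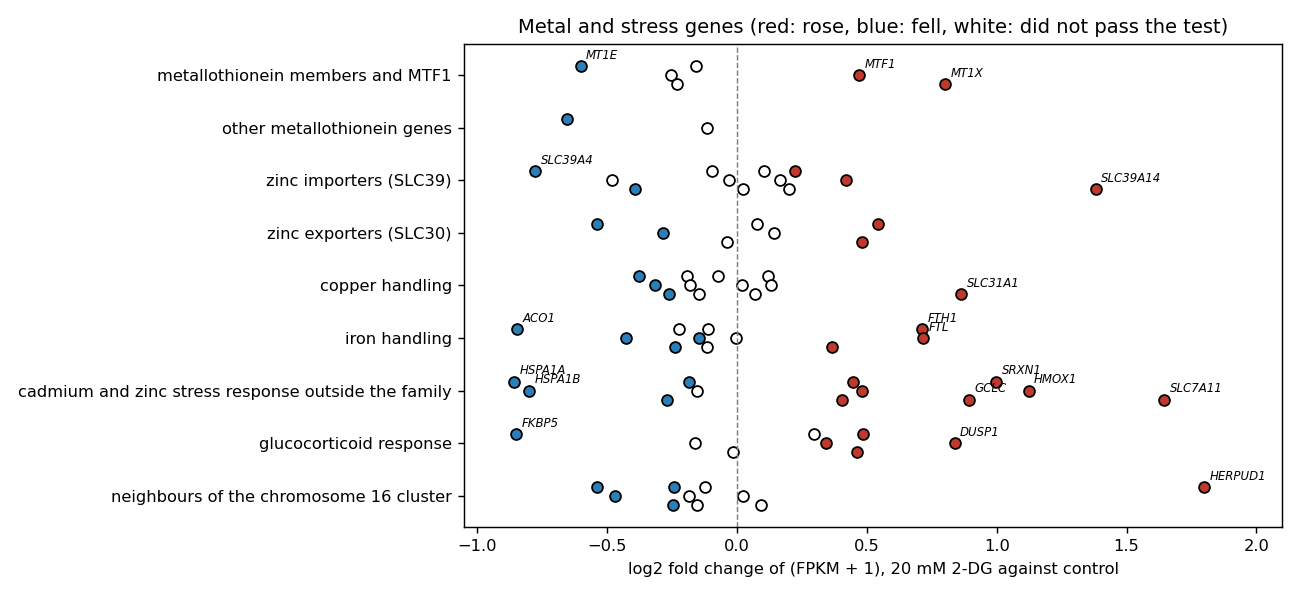
Difference from control in log2(FPKM + 1) at 20 mM 2-DG (horizontal axis) for each tested gene of 9 lists, where red marks genes that rose, blue genes that fell and white genes that did not pass the test. MT1X (0.80) and MT1E (-0.60) lie on opposite sides of 0, and SLC39A14 (1.38), SLC7A11 (1.65) and HERPUD1 (1.80) lie farthest to the right.

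The genes with the most similar profile over the 9 libraries were sought by the root mean square difference of centered log2(FPKM + 1) values among the tested genes outside the family. For MT2A, whose own values varied by 0.173 around their mean, they were TMEM203 (0.0382), COX4I1, a subunit of cytochrome c oxidase (0.0384), and STOML2, a mitochondrial inner membrane protein (0.0397). For MT1E (0.306) they were the nucleotide pyrophosphatase DCTPP1 (0.0781), HMG20B (0.0837) and CST2 (0.0868). The match was looser for MT1X (0.416), with the ferritin heavy chain pseudogenes FTH1P20 (0.127) and FTH1P8 (0.145) and with DERL2, a gene of endoplasmic reticulum-associated degradation (0.140). Reads of such pseudogenes and of FTH1 may be shared. MT1F (0.177) was most like ADCK2, NUP50-DT and TM2D2 (0.0654 to 0.0751), and MTF1 (0.272) most like SOCS7, AGO2 and AHNAK2 (0.0528 to 0.0685). These distances describe the 9 libraries, which also share the deviations between replicates given above.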

How the data were processed

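RNA of the 9 libraries was prepared with a Qiagen kit and a SMARTER mRNA-Seq kit per the labels. The authors deposited FPKM values per gene, 1 file per library. The submitters' processing notes name GRCh38 (hg38), while the aligner and counting tool behind these files are not given in the sources used here. Since count models need counts, the FPKM values were tested with limma 3.58.1 in R 4.3.3. Whole reads (within 0.01 of a whole number) were recovered for 32806 of 32806 genes above 0 and made up 99.8% to 99.9% of the totals. The length was the GENCODE release 29 exon length for 50.6% of these genes. It was otherwise the smallest that gave whole reads, as for MT2A, MT1X, MT1F, MT1M and MTF1. For such genes whole reads are no check on the recovery, and a common factor of reads and length would not be seen. The filter kept 16570 genes that had 10 or more reads, scaled to median depth, in 3 or more libraries and a sum of 15 or more. Values were log2(FPKM + 1), which understates changes of low genes. The fit had 3 group means, a mean-variance trend and Benjamini-Hochberg adjustment over all genes tested, and genes at an adjusted p under 0.05 are said to rise or fall. The fit was also run on simulated counts with the same spread setting for every gene and no trend with length. That run cannot show how the fit behaves under the deviations between replicates given above. Intervals are 95%. The alternatives were a pseudocount of 0.1, 2 other filters, median-ratio scaling, limma-voom on the recovered reads, a replicate block, leaving out each library, and removal of the length trend by loess (span 0.5), the last chosen after seeing the data. The members and gene lists were chosen with earlier results of these data known, and the named genes are the members, the list genes and, for each member with a mean of at least 1 FPKM, the 3 genes with the most similar profile. All replicate pairs differed by more than sampling noise. Motifs were searched in RefSeq promoters (GRCh38.p14).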

Additional observations from a re-analysis of the deposited data

How the results depend on the processing

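No difference from control that passed the test changed direction under the alternatives tried. Differences that had not passed did so when 1 library was left out. Between the doses, leaving out 1 library gave -0.31 to 0.0032 for MT1E, -0.073 to 0.27 for MT1X, -0.057 to 0.21 for MT2A, -0.079 to 0.11 for MT1F, -0.21 to 0.16 for MT1M and -0.14 to 0.21 for MT1A on the log2 scale, and for MT2P1 at 20 mM against control it gave -0.23 to 0.075. The number of members that rose at 10 mM 2-DG was 1, and 0 with all genes above 0 in the fit, which adds genes to the adjustment. Leaving out 1 library gave 0 to 1. The number that fell at 10 mM was 1, and 0 with all genes above 0 or with median-ratio scaling, and leaving out 1 library gave 0 to 2 (2 without 10 mM replicate 2). At 20 mM the number that rose was 2, and 1 with all genes above 0, and leaving out 1 library gave 1 to 2, while 1 fell in every setting. Over the metal and stress lists together, 17 genes fell at 10 mM, with 10 to 14 when 1 library was left out, and 21 fell at 20 mM, with 13 to 21. The list genes that rose then numbered 15 to 19 at 10 mM and 17 to 20 at 20 mM. The cause of these shifts was not tested beyond the fewer samples or added genes of the settings themselves. Samples of the same replicate number did not deviate together (correlations of -0.41 to 0.29, 3 of 9 over 0.1), so the numbers were not taken to pair them. With the replicate number as a block, 1 member rose at 20 mM (MTF1 had an adjusted p of 0.0887) and 11 list genes fell at 10 mM. Depth limited MT1M and MT1G, with 88 and 6 reads over all 9 libraries.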
